A study of Mus musculus with 3 samples.

Results

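Regions of H3K4me3 and H3K27me3 were examined around 6 genes that direct the somatic cells of the gonad: Wt1, Nr5a1, Lhx9, Sox9, Amh and Foxl2. Every called region of either mark that shares at least 1 bp with a fixed window of mouse build mm9 around each gene was taken. These were 29 of 47928 H3K4me3 regions and 11 of 18731 H3K27me3 regions. The chromatin came from mouse primordial germ cells at E11.5, the cells that later give rise to eggs and sperm. A transgenic Oct4:GFP line on the B6 background had been crossed to Swiss-Webster females, and GFP+ cells were sorted by flow cytometry from pooled gonadal regions of several embryos. The series holds 1 H3K4me3 sample, 1 H3K27me3 sample and 1 input, each standing for 2 replicates made from aliquots of 104000 and 97000 cells, and the input was not analysed here.

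H3K4me3 is trimethylation of lysine 4 on histone H3, found mostly at promoters of active and CpG-rich genes. H3K27me3, trimethylation of lysine 27, is placed by Polycomb repressive complex 2 at genes kept silent. Promoters that carry both are called bivalent and often belong to genes that direct the fate of a lineage. In the early gonad, germ cells lie among somatic cells of the gonadal ridge, and the somatic cells become Sertoli cells in a testis or granulosa cells in an ovary. The 6 genes are known for work in those somatic cells.

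All 6 windows held regions of both marks, and in all 6 some sequence was covered by both. Regions of both marks occurred in 6.26% to 19.6% of all windows of the same widths, as detailed in the next paragraph. The genes were chosen with earlier results of these data known, so this contrast is a description only. H3K4me3 covered 30.8 kb of the 290 kb in the windows, H3K27me3 121.6 kb and both together 23.6 kb. Thus 76.6% of the H3K4me3 length lay in H3K27me3, and 19.4% of the H3K27me3 length lay in H3K4me3. Of the 29 H3K4me3 regions, 24 lay wholly inside an H3K27me3 region, 1 overlapped one in part and 4 were free of it. That made 86.2% overlapping, beside 18.8% of the H3K4me3 regions of the whole list. The 25 overlapping regions lay in only 7 H3K27me3 regions, with 7 of the 25 in 1 region at Lhx9. They are not independent, so that percentage rests on few loci. Of the 11 H3K27me3 regions, 7 overlapped H3K4me3 (63.6%, beside 37.5% of the whole list), and the other 4 lay in the Wt1 and Sox9 windows. Their median width was 3200 bp, beside 1800 bp for the whole list. The widest region of each window was therefore set against regions of like width, as defined below for Wt1. Of those, H3K4me3 overlapped 91.9% for Sox9, 80.2% for Wt1, 79.9% for Foxl2, 76.1% for Lhx9, 70.1% for Nr5a1 and 39.8% for Amh. Overlap was thus usual at such widths, except at that of Amh.

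The same classes were counted in every window of the same width along chromosomes 1 to 19 and X, at a step of 10 kb. Sequence covered by both marks occurred in 15.4% of windows of 80 kb (the width used for Wt1), 12.3% of 60 kb (Nr5a1), 10.7% of 50 kb (Sox9 and Lhx9), 7.11% of 30 kb (Foxl2) and 5.12% of 20 kb (Amh). H3K4me3 alone or with the other mark was present in 48.6%, 42.9%, 39.4%, 30.1% and 23.6% of these windows, and H3K27me3 in 22.7%, 19.1%, 17.1%, 12.6% and 9.95%. Regions of both marks, shared or not, were present in 19.6%, 15.8%, 13.6%, 8.91% and 6.26%. Such windows were taken whether or not they hold a gene, whereas each of the 6 was set around one. The placement of the 6 windows was not checked against an annotation of mm9. Among windows with H3K4me3, the share with doubly covered sequence was higher, from 21.7% at 20 kb to 31.7% at 80 kb. Among windows with at least as much H3K4me3 as the gene's own, it was higher still. There it was 46.1% for Wt1, 42.1% for Nr5a1, 40.1% for Lhx9, 37.7% for Sox9, 32.6% for Foxl2 and 28.7% for Amh. No test was made, because each mark has 1 list and the spread between its 2 replicates is not in the files. The marks were precipitated separately from many cells, and overlap of the lists does not tell whether single cells carry both. The purity of the sort was not tested. Whether any of the H3K4me3 at these genes came from somatic cells in the sort was not tested either, and the lists do not separate cell types.

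**Figure D1:**
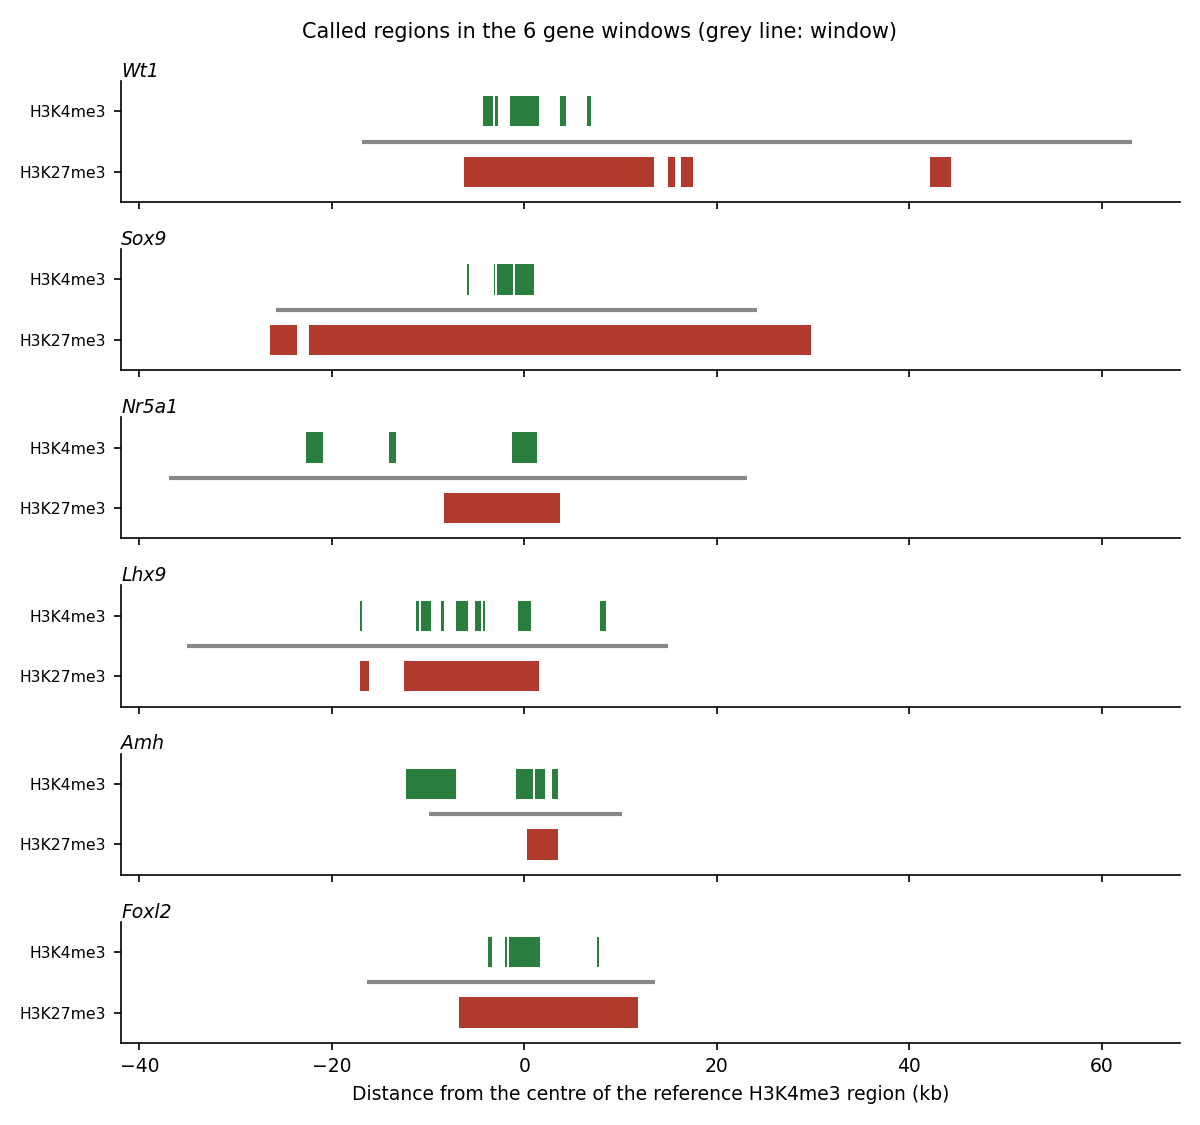
Called regions in each gene window, with H3K4me3 above and H3K27me3 below the grey line that marks the window; regions crossing an edge are drawn whole. The horizontal axis is the distance in kb from the centre of the widest H3K4me3 region that overlaps the widest H3K27me3 region of that window. In 5 windows H3K4me3 islands sit inside an H3K27me3 domain of 12.0 to 52.2 kb, and in the Amh window H3K27me3 is 3.2 kb wide with a free H3K4me3 region to its left.

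**Figure D2:**
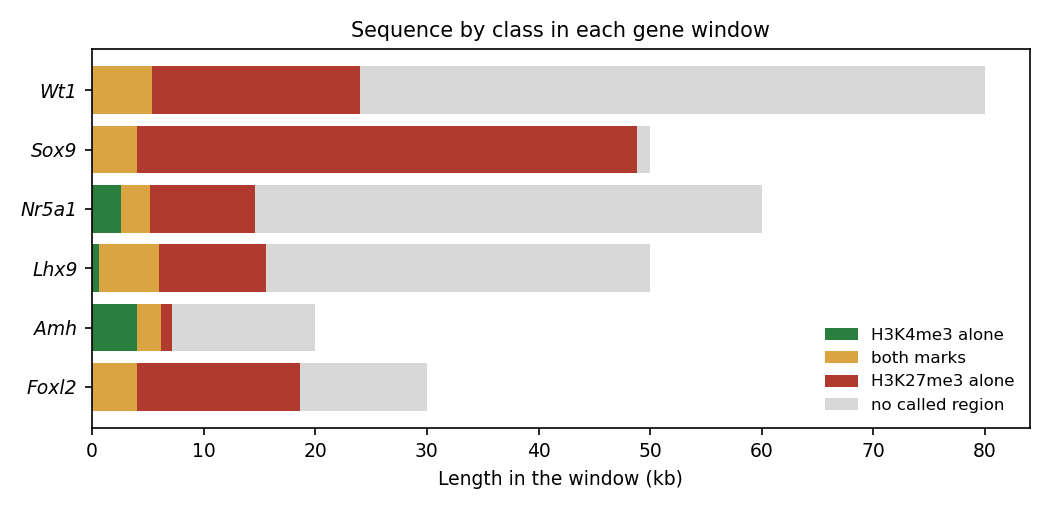
Length in kb of each gene window covered by H3K4me3 alone, both marks, H3K27me3 alone or no called region. Wt1, Sox9 and Foxl2 have no H3K4me3-only sequence, and Amh has the most, 4.0 kb.

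Wt1, Nr5a1 and Lhx9 are transcription factors that the gonadal ridge needs to form or persist. Wt1, a zinc-finger protein also needed for the kidney, was examined on chromosome 2 from 104.95 to 105.03 Mb. Its window held 5 H3K4me3 regions of 0.4 to 3.0 kb, 5.4 kb in all, and all 5 lay inside 1 H3K27me3 region of 19.8 kb (104960601 to 104980400). The widest H3K4me3 region, 104965401 to 104968400, was wider than 94.9% of all H3K4me3 regions. H3K27me3 ran on for 4.8 kb to its left and 12.0 kb to its right.

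The class at Wt1 was therefore H3K4me3 wholly within H3K27me3, followed by H3K27me3 alone. Further along the window stood 3 H3K27me3 regions without H3K4me3, of 0.8 kb (104981801 to 104982600), 1.2 kb (104983201 to 104984400) and 2.2 kb (105009001 to 105011200). The remaining 56.0 kb, 70.0% of the window, held no called region. In the GRCm38.p6 gene table the nearest gene before Wt1 is Wt1os, a noncoding RNA gene, and the nearest after it is Them7. As a description, 334 H3K27me3 regions in the genome, this one included, had 0.8 to 1.25 times its width. They overlapped a median of 2 H3K4me3 regions, and 11.1% overlapped 5 or more.

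Nr5a1 encodes steroidogenic factor 1, a nuclear receptor that switches on genes of steroid hormone synthesis. Its window (chromosome 2, 38.53 to 38.59 Mb) held 1 H3K27me3 region of 12.0 kb (38558601 to 38570600) with a single H3K4me3 region of 2.6 kb inside it (38565601 to 38568200). H3K27me3 extended 7.0 kb to the left of that island and 2.4 kb to its right. At 2.6 kb the island was wider than 91.8% of the list, and no second H3K4me3 region broke the domain.

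Nr5a1 also had H3K4me3 apart from H3K27me3. Regions of 1.8 kb (38544201 to 38546000) and 0.8 kb (38552801 to 38553600) were free of H3K27me3, so 50.0% of the 5.2 kb of H3K4me3 was shared. The gene table places the pseudogene Adgrd2-ps next to Nr5a1 on one side and Nr6a1, another nuclear receptor gene, on the other. The free regions could not be assigned to any of these genes, because no annotation of mm9 was used here. Among 683 H3K27me3 regions of like width the median number of H3K4me3 regions was 1, as at Nr5a1.

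Lhx9, a LIM homeobox gene, had the most H3K4me3 regions of the 6 windows. Its window (chromosome 1, 140.71 to 140.76 Mb) held 9, of 0.2 to 1.4 kb, and 7 of these were packed in 1 H3K27me3 region of 14.0 kb (140732601 to 140746600). They covered 5.2 kb, or 37.1%, of that region, and only 1.2 kb of it lay before the first island and 0.8 kb after the last. Of 535 H3K27me3 regions of like width, 3 (0.561%), Lhx9 included, overlapped at least 7 H3K4me3 regions, and the median was 1. The islands are thus many and narrow, and none exceeded 1.4 kb.

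The other Lhx9 regions were small. An H3K27me3 region of 1.0 kb (140728001 to 140729000) began at the same position as an H3K4me3 region of 0.2 kb. The ninth H3K4me3 region, 0.6 kb wide (140753001 to 140753600), was free of H3K27me3 and left 90.0% of the H3K4me3 length shared. In 2 places the islands were parted by a gap of 200 bp, 1 step of the grid on which regions were called.

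Sox9 and Amh belong to the testis pathway. Sox9 is the transcription factor that commits supporting cells to the Sertoli fate. Its window (chromosome 11, 112.62 to 112.67 Mb) was almost filled by H3K27me3, which covered 48.8 of 50.0 kb (97.6%). Only 0.0584% of windows of that width held as much. A single H3K27me3 region of 52.2 kb (112623401 to 112675600) filled most of it, ran past its right edge and ranked 33rd by width among all 18731.

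Inside that domain H3K4me3 was confined, within the window, to 4 regions. They measured 0.2 kb (112639801 to 112640000), 0.2 kb (112642601 to 112642800), 1.6 kb (112643001 to 112644600) and 2.0 kb (112644801 to 112646800). The last 3 were parted by gaps of 200 bp, so they form nearly one block, with 21.4 kb of the domain to the left of its widest part and 28.8 kb to the right. Another H3K4me3 region of 1.2 kb (112671801 to 112673000) overlapped the same domain just outside the window. H3K4me3 covered 9.96% of the domain, the lowest share among the widest H3K27me3 regions of the 6 windows. In the 37 regions of like width, the median share was 5.86%.

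Both H3K27me3 regions of the Sox9 window crossed its edges. The smaller one, 2.8 kb wide (112619401 to 112622200), began 0.6 kb before the window and was free of H3K4me3. If regions had to lie wholly inside the window, Sox9 would keep no H3K27me3 and its class would be H3K4me3 alone. Nothing in the other 5 windows changed class under that setting.

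Amh encodes anti-Müllerian hormone, which Sertoli cells secrete and which makes the Müllerian ducts regress. Its window (chromosome 10, 80.26 to 80.28 Mb) held the least H3K27me3, 1 region of 3.2 kb (80270201 to 80273400). H3K4me3 overlapped it in 3 regions, of 1.8 kb (80269001 to 80270800), 1.0 kb (80271001 to 80272000) and 0.6 kb (80272801 to 80273400). The first began 1.2 kb before the H3K27me3 region, and the last ended at the same position as it did. H3K4me3 covered 68.8% of the H3K27me3 region, and 8 of 2859 regions of like width (0.28%) overlapped as many H3K4me3 regions.

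At Amh, the share of the H3K4me3 length that was shared varied with the setting, in part through 1 region at the window's edge. The window's left edge cut an H3K4me3 region of 5.2 kb (80257601 to 80262800), which was free of H3K27me3 and wider than 99.3% of the list. With its 2.8 kb inside the window, H3K4me3 covered 31.0% of the window, a level reached by 0.483% of windows of 20 kb, and 35.5% of that length was shared. With the window narrowed by 5 kb on each side, or with regions wholly inside it, that region drops out and 64.7% of the remaining 3.4 kb was shared. In the gene table the genes on either side of Amh are Sf3a2, which encodes a splicing factor subunit, and Jsrp1. Which of these genes the regions belong to could not be told from the lists.

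Foxl2, a forkhead transcription factor, maintains granulosa cells of the ovary. Its window (chromosome 9, 98.84 to 98.87 Mb) held 1 H3K27me3 region of 18.6 kb (98849601 to 98868200), which covered 62.0% of it, with 4 H3K4me3 regions wholly inside. These measured 0.4 kb (98852601 to 98853000), 0.2 kb (98854401 to 98854600), 3.2 kb (98854801 to 98858000) and 0.2 kb (98864001 to 98864200). The 3.2 kb island was the longest stretch covered by both marks in the 6 windows. H3K27me3 reached 5.2 kb to its left and 10.2 kb to its right, an arrangement like that at Wt1, where the domain was 19.8 kb and the widest island 3.0 kb.

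The promoter table of RefSeq (GRCm38.p6) had entries for Lhx9 and Foxl2 among the 6 genes. They are shown because bivalent promoters are usually rich in CpG, and they differ in that respect. Both run 5′ to 3′ on the gene's strand over the 250 bases before the start, with CpG in capitals. The Lhx9 entry is chr1:138842445-138842694 on the minus strand, at a start inside the gene, and the Foxl2 entry is chr9:98955357-98955606 on the plus strand. These positions are on another build than the called regions, so no region was placed on them.
Lhx9: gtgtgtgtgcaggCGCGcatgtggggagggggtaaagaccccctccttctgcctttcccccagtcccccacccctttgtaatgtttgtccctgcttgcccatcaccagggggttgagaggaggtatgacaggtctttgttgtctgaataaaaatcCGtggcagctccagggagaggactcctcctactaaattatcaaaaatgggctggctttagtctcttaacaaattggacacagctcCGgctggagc
Foxl2: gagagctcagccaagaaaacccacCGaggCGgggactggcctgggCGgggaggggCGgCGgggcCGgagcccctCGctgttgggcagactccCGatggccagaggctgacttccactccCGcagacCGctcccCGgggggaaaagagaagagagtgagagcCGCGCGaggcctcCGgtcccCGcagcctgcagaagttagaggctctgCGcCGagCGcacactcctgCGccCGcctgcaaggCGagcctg

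Over these 250 bases Foxl2 had 22 CpG and a GC content of 70.8%, and Lhx9 had 4 CpG and 53.6%. Over the whole entries of 300 bases the ratio of observed to expected CpG was 0.708 for Foxl2, above 71.6% of the 32851 entries, and 0.261 for Lhx9, above 37.2%. The Lhx9 entry lies at a start inside the gene, and the Foxl2 entry at the end of its gene. The Lhx9 value therefore does not describe a promoter at the end of Lhx9, which was not examined. The median of all entries was 0.384. Of 20 other genes of the somatic gonad listed for this purpose, 13 had an entry. The highest value was used for any gene with more than 1 entry, whereas the median is over single entries, which favours the genes. By that measure 9 of these 13 exceeded that median. Values of the 13 ran from 0.0804 for Ptgds, a prostaglandin synthase gene, to 0.983 for Map3k4, a kinase gene of the sex determination pathway. High values were found for signalling genes of the ovary (Wnt4 at 0.977, Rspo1 at 0.818) and of the testis (Fgf9 at 0.88) alike. Sry, the testis-determining gene, was at 0.151, and the testis genes Sox8 and Dhh were at 0.647 and 0.438.

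Letters of 8 motifs were searched on both strands of the 300 bases. The Lhx9 entry held TGATAA, one of the GATA factor motifs, which occurs in 9.05% of all entries. The Foxl2 entry held none of the 8. Of the motifs found in neither, the NR5A1 half-site AAGGTCA occurs in 4.72% of all entries. The SOX motif AACAAT was present in 10.7%, and the other GATA motif searched, AGATAA, in 11.2%. For the forkhead motif GTAAACA the share was 3.65%, and for the homeobox motif TAATTA it was 5.29%. The motif GTGGGAG, bound by WT1 and EGR proteins, was present in 9.73% of entries, and the TATA box TATAAA in 13.6%.

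The widest H3K27me3 region per window was 52.2 kb at Sox9, 19.8 kb at Wt1, 18.6 kb at Foxl2, 14.0 kb at Lhx9, 12.0 kb at Nr5a1 and 3.2 kb at Amh. All but that of Amh were wider than at least 95.3% of H3K27me3 regions, and that of Amh was wider than 70.0%. The sequence shared by both marks came to 5.4 kb for Wt1 and Lhx9, 4.0 kb for Sox9 and Foxl2, 2.6 kb for Nr5a1 and 2.2 kb for Amh. With no replicate values, it cannot be said which neighbours in these orders differ beyond error.

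Shared lengths were also set against windows of the same width. As much shared sequence as at the gene was found in 0.353% of windows for Lhx9, 0.368% for Foxl2, 0.718% for Wt1, 0.752% for Sox9, 0.871% for Amh and 2.23% for Nr5a1. Among windows with any shared sequence, these shares were 3.3%, 5.17%, 4.66%, 7.04%, 17.0% and 18.1%. The median such window held 1.0 kb at 20 and 30 kb and 1.2 kb at 50, 60 and 80 kb. Single H3K4me3 regions at the 6 genes had a median width of 600 bp, beside 800 bp for the whole list. Regions of 1 step of 200 bp numbered 6 of 29, while such regions made up 25.7% of the whole list.

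**Figure D3:**
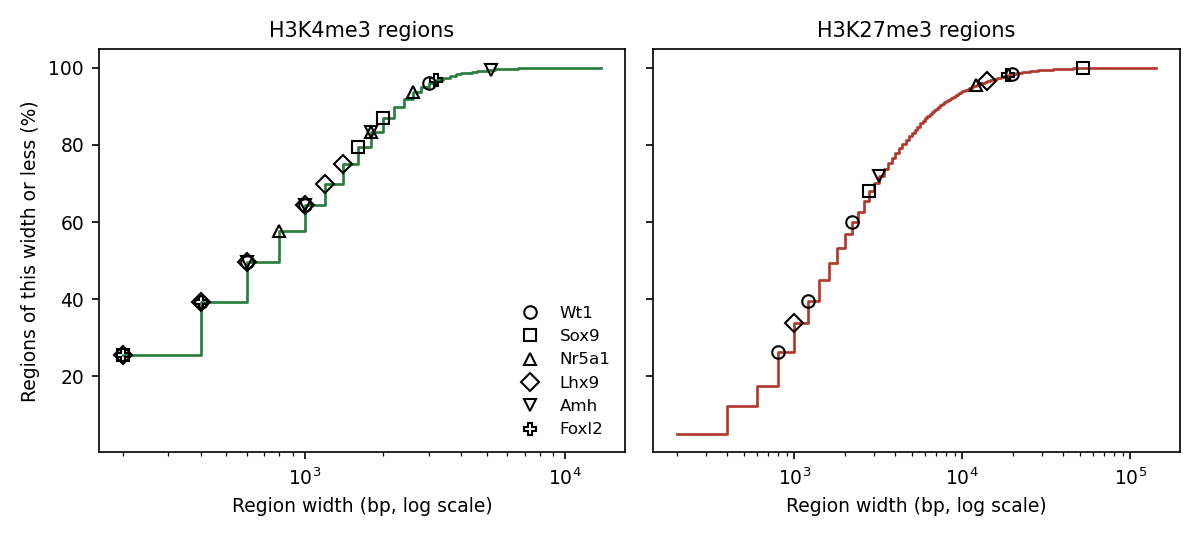
Cumulative share of all regions by width (log axis, bp) for each mark, with the regions of the 6 gene windows as symbols. The H3K4me3 regions spread from 200 to 5200 bp on a curve that runs to 13800 bp. The widest H3K27me3 regions of Wt1, Sox9, Nr5a1, Lhx9 and Foxl2 lie at the upper end of the H3K27me3 curve, from 12.0 to 52.2 kb.

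The surroundings of the genes differed. In the 500 kb on each side of the window H3K27me3 covered 0.16% at Lhx9, 3.18% at Foxl2, 4.16% at Wt1, 4.84% at Nr5a1, 11.7% at Amh and 21.0% at Sox9. In every case the window itself had more, from 16.0% at Amh to 97.6% at Sox9. The Lhx9 domain stood almost alone: the next H3K27me3 region before its window was 1.2 kb wide and 27 kb away, and the next after it lay 5089.8 kb away. Sox9 lay in a neighbourhood rich in H3K27me3 and poor in H3K4me3 (1.02%).

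For H3K4me3 the flanks ranged from 0.92% at Lhx9 to 20.2% at Amh. Amh thus lay where H3K4me3 was dense on both sides, and its window exceeded the flanks by less (31.0% against 20.2%) than that of Lhx9 (12.0% against 0.92%). The sequence shared by both marks made up 0.08% of the flanks of Lhx9 and 3.14% of those of Amh, beside 10.8% and 11.0% of their windows.

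**Figure D4:**
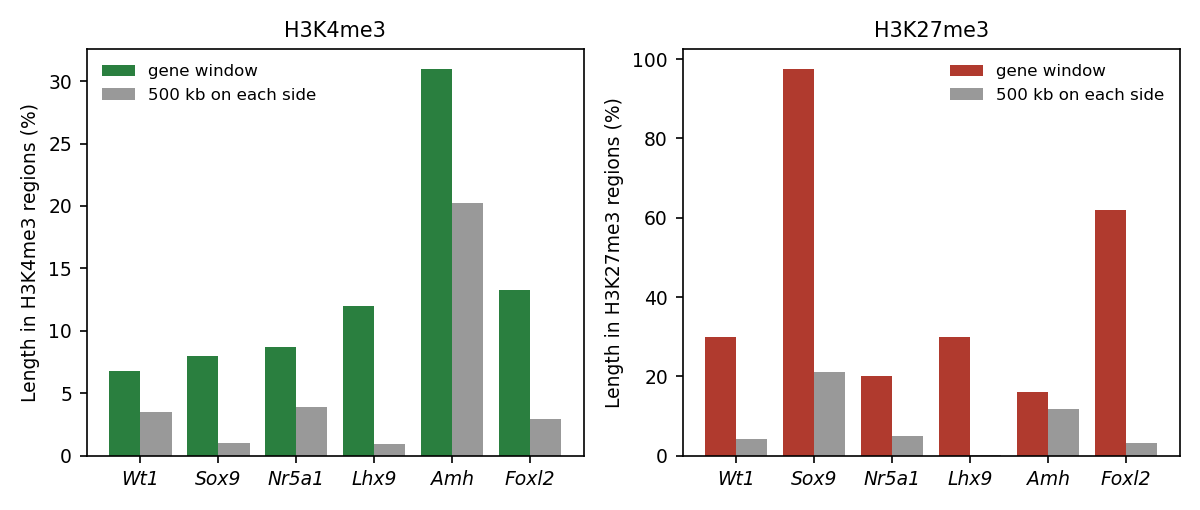
Percentage of length in called regions of each mark, in the gene window (coloured bars) and in the 500 kb on each side of it together (grey bars). Every window is above its flanks for both marks, and for both marks the difference is smallest relative to the flanks at Amh.

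Regions just beyond the windows show how far the window edges set these values. The nearest H3K4me3 regions outside were 1.8 kb away at Sox9 (1.2 kb wide) and Nr5a1 (0.6 kb wide), 3.4 kb at Foxl2 (0.6 kb), 4.6 kb at Amh (1.2 kb), 13.0 kb at Lhx9 (0.2 kb) and 34.0 kb at Wt1 (1.4 kb). For H3K27me3 the nearest was a region of 6.0 kb that began 0.4 kb after the Foxl2 window (98870401 to 98876400). At Nr5a1 a region of 1.4 kb ended 1.8 kb before the window (38526801 to 38528200), and at Sox9 one of 0.8 kb ended 3.0 kb before it. The Foxl2 domain ended inside the window, at 98868200, so the gap before H3K27me3 resumed was wider than 0.4 kb. At Sox9 separate H3K27me3 regions crossed the left and the right edge of the window, with an unmarked gap of 1.2 kb between them.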

How the data were processed

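Per the labels' protocols, chromatin was fixed with formaldehyde (0.25%) and sheared, and amplification took 20 cycles for precipitated DNA and 15 for input. The submitters' processing notes name Bowtie 0.12.7 and mm9. For each mark the authors deposited 1 list of regions, holding chromosome, start, end and name, with no count or score, so depth is unknown. Per the file names these are contiguous ChromHMM regions, and all ends lie on a 200-bp grid. Not given in the sources used here are the ChromHMM settings, any use of the input and how replicates were merged.

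Overlap of at least 1 bp was counted, and window lengths were clipped at the edges. Coordinates count from 1. Comparison windows started at every multiple of 10 kb within mm9 chromosome lengths (GenomeInfoDb 1.38.1), assembly gaps included. Genes named in the text were the 6 members, their neighbours in a GRCm38.p6 table (names only) and a list of somatic gonad genes for promoter sequence. The members and lists were chosen with earlier results of these data known, and the comparisons by like width and with flanks after the values were seen. Planned positions of cell type markers were not analysed here. The overlap code was tested on simulated data. Python 3.11.15, numpy 2.4.6, pandas 2.3.3 and R 4.3.3 were used.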

Additional observations from a re-analysis of the deposited data

How the results depend on the processing

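Of 138 values recomputed for 32 results, 126 stayed alike (within 1.5 times, or within the 95% Wilson interval for shares of windows) and 12 moved. Neighbouring comparison windows overlap and are not independent, so that interval is too narrow. It served only as a label, and the shares on autosomes only were labelled as moved by it. Doubly covered sequence remained in 6 of 6 windows with regions wider than 400 bp, with regions less than 1 kb apart joined, with windows widened by 10 kb or narrowed by 5 kb on each side, and with at least 400 bp shared. It remained in 5 when regions had to lie wholly inside, which removes both H3K27me3 regions of Sox9 and took the H3K27me3 length from 121.6 to 72.8 kb. Leaving out regions of 400 bp or less took the H3K4me3 regions from 29 to 18. At Amh, H3K4me3 length was 11.6 kb in the widened window, and 3.4 kb in the narrowed one or with regions wholly inside, against 6.2 kb. On autosomes only, the shares of windows with doubly covered sequence were 5.21% (20 kb), 7.23% (30 kb), 10.8% (50 kb), 12.5% (60 kb) and 15.6% (80 kb). No paired analysis was possible because each mark has 1 list, and no replicate could be left out. Without read counts, the limit that depth sets on these calls is unknown.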
